A study of Homo sapiens with 2 samples.

Results

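FOS, FOSB, FOSL1, FOSL2, JUN, JUNB, JUND, MAFF, MAFG and MAFK encode the FOS, JUN and small MAF transcription factors. These 10 genes were taken by name from a table of 58884 genes, and all 10 were found above 0 in both libraries. RNA was measured in TPC-1 cells, a human papillary thyroid carcinoma line that carries a RET fusion. The first library was made after transfection with a control siRNA, the second after transfection with an siRNA to XPR1, which encodes the phosphate exporter of human cells. No other agent is named in the labels, and the time after transfection is not given in the sources used here.

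FOS and JUN proteins form AP-1, a pair of leucine zipper proteins that binds the element TGACTCA and the related element TGACGTCA. JUN proteins can pair with each other, while FOS proteins need a JUN partner to bind DNA. Growth factor signals through ERK raise FOS family transcripts by way of the serum response factor SRF and its ETS partners, and JUN kinases phosphorylate JUN. Small MAF proteins hold a leucine zipper but no activation domain, so they repress as pairs of their own kind and activate only through partners such as NFE2L2 (NRF2). In thyroid carcinoma, RET and BRAF lesions feed the ERK pathway, and FOSL1 is known as an AP-1 subunit that ERK activity stabilises.

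The libraries held about 15780000 (control) and 15150000 (XPR1 siRNA) counted reads, and with 1 library in each group there is no replicate and no test of the conditions. Values are in TPM, a length-corrected share of all transcripts of a library, so levels of different genes can be set side by side. Comparisons between genes, family sums and shares also rest on the exon length used for each gene, and error in it was not measured. Intervals are 95% intervals from recovered read numbers and cover counting error only. XPR1 was 39.2 TPM in the control library against 5.31 TPM with its siRNA, which is 13.5% of control (Clopper-Pearson interval 11.6% to 15.7%). Of 8 thyroid markers, PAX8 (588 and 409 TPM), FOXE1 and HHEX reached a mean of 1 TPM, and NKX2-1, TSHR and SLC5A5 were listed at 0 in both libraries. Of 6 epithelial markers, the keratins KRT8 and KRT18 were expressed and within 1.5-fold, and KRT7 was 11.1 and 3.39 TPM, 3.27-fold lower (2.42 to 4.50). KRT19 and CDH1 did not reach a mean of 1 TPM, and EPCAM was listed at 0 in both. The 7 leukocyte markers summed to 1.04 and 1.13 TPM, the 4 endothelial markers to 1.89 and 1.59 TPM, and the 5 fibroblast markers to 1.31 and 7.78 TPM. CD3E and LYZ among the leukocyte markers and DCN among the fibroblast markers were at 0 in both. The fibroblast sum was higher after XPR1 siRNA, mainly through COL1A1 (1.04 and 6.67 TPM), and its part in the results was not tested.

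Of the 10 genes, 7 stood lower by 1.5-fold or more with the XPR1 siRNA and none stood higher by as much. The 7 were FOS, FOSB, FOSL1, JUN, JUNB, MAFF and MAFG. JUND and MAFK were lower by less than 1.5-fold, and FOSL2 was level. Folds are counted on the log2(TPM + 1) scale, which understates the change of low genes. Among all 16319 genes whose mean reached 1 TPM, 16.6% were lower by 1.5-fold or more and 21.7% higher, and among protein-coding genes alone 11.1% and 20.7%. FOS, FOSB, FOSL1, JUNB and MAFF, 5 of the 10 genes, were 2-fold lower or more, against 8.57% of all genes and 4.57% of protein-coding genes. None was 2-fold higher, against 10.4% and 8.75%. The median difference of the 10 genes was -1.11 on the log2(TPM + 1) scale, and that of all genes was 0.05.

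**Figure D1:**
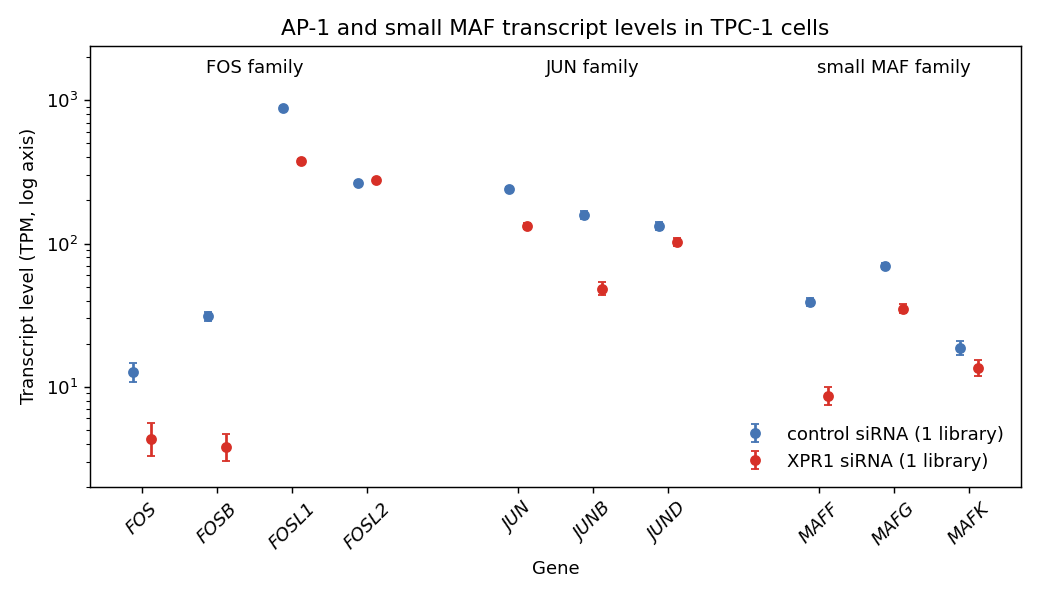
Transcript level in TPM on a log axis for each gene, with the control library in blue, the XPR1-siRNA library in red, and bars for the exact 95% Poisson counting interval of that 1 library. FOSL1 was the highest in both libraries at 886 and 375 TPM, and FOSL2 is the gene whose points lie side by side.

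Within the FOS family, FOSL1 held most of the transcript. FOSL1 (FRA-1) lacks the transactivation domain of FOS and is tied to invasion in many carcinomas. It is encoded on the minus strand of chromosome 11 (65892049 to 65900573) of GRCh38. Its level was 886 TPM in the control library against 375 TPM with the XPR1 siRNA, which was 2.36-fold lower (2.26 to 2.47). Among 19945 protein-coding genes it ranked 88th by TPM in control and 263rd after XPR1 siRNA. It remained the highest of the 10 genes in both libraries.

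FOSL2 (FRA-2), the other FOS-related antigen, was level between the libraries. It is encoded on the plus strand of chromosome 2 (28392448 to 28417312). Its level was 266 TPM in the control library against 276 TPM with the XPR1 siRNA, a ratio of 1.04 (1.01 to 1.07, counting error only). This was a difference of 0.05 on the log2(TPM + 1) scale. The sign of this difference depended on scaling, with -0.0029 under median-of-ratios scaling and -0.04 under upper-quartile scaling, so no direction is given for FOSL2. With about 8028 and 8012 reads it was also the most deeply read of the 10 genes. The ratio of FOSL1 to FOSL2 was 3.33 in control and 1.36 after XPR1 siRNA.

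FOSB and FOS, the classic immediate early genes of the family, stood far below FOSL1 and FOSL2 in both libraries and were lower after XPR1 siRNA. FOSB, on the plus strand of chromosome 19 (45467995 to 45475179), was 31.1 TPM in the control library against 3.81 TPM with the XPR1 siRNA, which was 8.14-fold lower (6.51 to 10.3). This was the lowest ratio of the 10, and by its difference of -2.74 it held rank 43 from the bottom of 11698 expressed protein-coding genes, where XPR1 itself held rank 50. FOS, on the plus strand of chromosome 14 (75278774 to 75282230), was 12.6 TPM in the control library against 4.33 TPM with the XPR1 siRNA, which was 2.92-fold lower (2.15 to 4.01). FOS rests on about 173 and 57 reads, the fewest of the 10 genes, and on the log scale has the widest interval. FOSB stood above FOS in control, while after XPR1 siRNA their counting intervals overlapped.

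Summed over its 4 genes, the FOS family was 1196 TPM in control and 659 TPM with the XPR1 siRNA, 55.1% of control. FOSL1 made up 95.2% of that difference and FOSB 5.07%. The make-up of the family differed with it. FOSL1 made up 74.1% of the family transcript in control and 56.9% after XPR1 siRNA, and FOSL2 22.2% and 41.9%, although its own level was nearly the same. FOS and FOSB carried little of the total, at 1.06% and 2.60% in control.

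All JUN family genes were lower after XPR1 siRNA, each to a different extent, and each consists of a single exon. JUNB, which often tempers JUN activity and also responds early to growth factors, is encoded on the plus strand of chromosome 19 (12791496 to 12793315). It was 158 TPM in the control library against 48.5 TPM with the XPR1 siRNA, which was 3.27-fold lower (2.90 to 3.69). JUN, the founding member and a strong activator, is encoded on the minus strand of chromosome 1 (58780788 to 58784327). It was 241 TPM in the control library against 132 TPM with the XPR1 siRNA, which was 1.82-fold lower (1.73 to 1.93). JUND, which is expressed in most cells at rest, is encoded on the minus strand of chromosome 19 (18279760 to 18281622). It was 132 TPM in the control library against 102 TPM with the XPR1 siRNA, which was 1.29-fold lower (1.18 to 1.42), and did not reach the 1.5-fold line.

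The JUN family as a whole was 532 and 283 TPM, 53.2% of control, close to the share the FOS family kept. The ratio of FOS family to JUN family transcript was 2.25 in control and 2.33 after XPR1 siRNA. Within the JUN family, JUN kept its part (45.3% and 46.7%), JUNB went from 29.8% to 17.1%, and JUND from 24.9% to 36.2%. JUNB stood above JUND in control and below it after XPR1 siRNA, and in both libraries their counting intervals did not overlap.

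**Figure D2:**
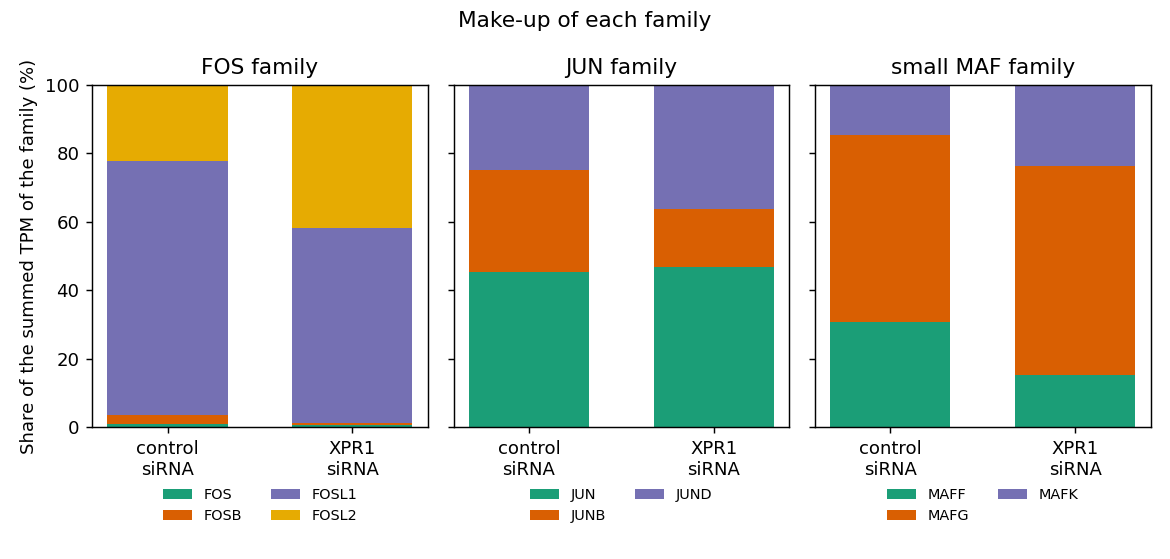
Share of the summed TPM of each family held by each of its genes, in percent, with 1 stacked bar per library. FOSL2 went from 22.2% to 41.9% of the FOS family, JUNB from 29.8% to 17.1% of the JUN family and MAFF from 30.7% to 15.1% of the small MAF family.

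The small MAF genes were the lowest of the families in level and had the lowest remaining share of the control sum, with 128 and 57.1 TPM, 44.8% of control. MAFF, the small MAF gene that is induced by cytokines and stress, is encoded on the plus strand of chromosome 22 (38200767 to 38216511). It was 39.1 TPM in the control library against 8.65 TPM with the XPR1 siRNA, which was 4.52-fold lower (3.88 to 5.31). MAFG, on the minus strand of chromosome 17 (81918270 to 81927714), is a usual partner of NFE2L2. It was 69.8 TPM in the control library against 35.0 TPM with the XPR1 siRNA, which was 1.997-fold lower (1.83 to 2.18). MAFK, on the plus strand of chromosome 7 (1530714 to 1543043), was 18.7 TPM in the control library against 13.5 TPM with the XPR1 siRNA, which was 1.38-fold lower (1.17 to 1.64). MAFG remained the most abundant, at 54.7% and 61.2% of the family, and the ratio of MAFG to MAFF went from 1.79 to 4.04. MAFF stood above MAFK in control and below it after XPR1 siRNA.

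**Figure D3:**
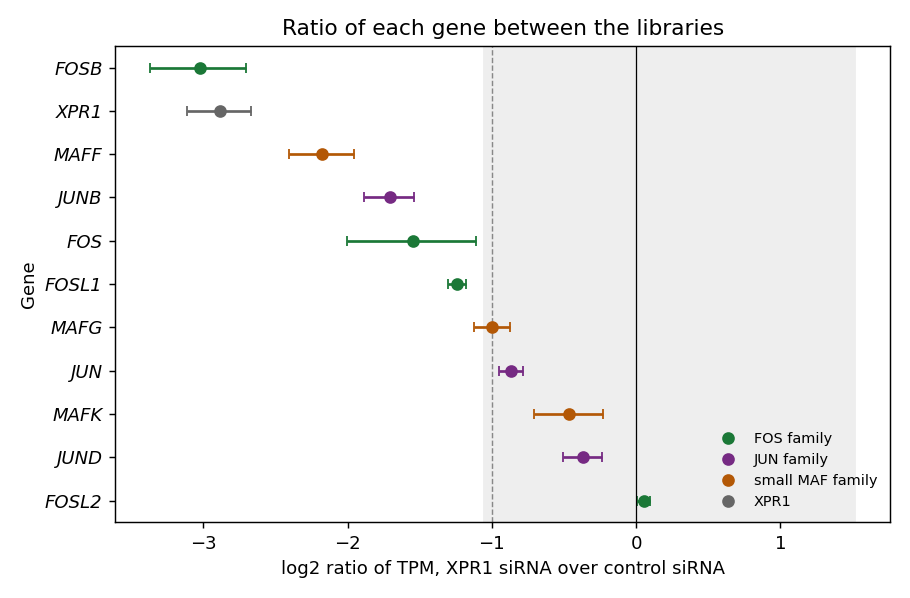
The log2 ratio of TPM, XPR1 siRNA over control siRNA, for the 10 genes and XPR1, with 95% Clopper-Pearson counting intervals, a dashed line at 2-fold lower, and grey shading from the 5th to the 95th percentile of protein-coding genes (-1.05 to 1.52). FOSB, MAFF, JUNB, FOS and FOSL1 lie to the left of the shading, and the other members lie within it.

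Set in order of level, control cells ran from FOSL1 through FOSL2, JUN, JUNB, JUND, MAFG, MAFF, FOSB and MAFK down to FOS. By counting intervals, which hold no error in exon length, each gene was apart from the next. After XPR1 siRNA the order was FOSL1, FOSL2, JUN, JUND, JUNB, MAFG, MAFK, MAFF, FOS and FOSB, and of these neighbours FOS and FOSB (4.33 and 3.81 TPM) were not apart. The largest fold in each family belonged to FOSB (8.14), JUNB (3.27) and MAFF (4.52).

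RefSeq promoter sequences (GRCh38.p14), from 250 bases before to 50 after the transcript start, were found for 8 of the 10 genes, with 2 starts for MAFF. FOSL1 and MAFK had none. The element TATAAA lay 33, 30 and 31 bases before the start of FOS, FOSB and JUNB, and in no other promoter of the set. On the plus strand at 40 to 20 bases before the start it is present in 2.3% of 35116 promoters, and anywhere on either strand in 11.5%. This element was searched after the values were seen. The windows of FOS (chr14:75278678-75278877), FOSB (chr19:45467846-45468045) and JUNB (chr19:12791336-12791535), all on the plus strand, run from 150 bases before to 50 after the start and are shown for the like position of TATAAA, with TATAAA and the sequence TGACG in capitals.
FOS: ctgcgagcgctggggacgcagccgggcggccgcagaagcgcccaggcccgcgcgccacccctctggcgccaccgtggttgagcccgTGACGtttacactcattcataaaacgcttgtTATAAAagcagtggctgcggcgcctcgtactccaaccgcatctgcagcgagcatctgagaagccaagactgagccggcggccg
FOSB: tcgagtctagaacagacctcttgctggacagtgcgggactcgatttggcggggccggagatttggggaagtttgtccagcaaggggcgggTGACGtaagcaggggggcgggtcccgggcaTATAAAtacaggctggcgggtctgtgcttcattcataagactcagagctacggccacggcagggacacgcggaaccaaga
JUNB: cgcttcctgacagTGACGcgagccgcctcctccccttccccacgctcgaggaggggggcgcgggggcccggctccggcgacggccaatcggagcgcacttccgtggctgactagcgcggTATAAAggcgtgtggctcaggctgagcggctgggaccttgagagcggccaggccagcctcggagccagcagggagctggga

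TGACG, the first part of the cyclic AMP response element TGACGTCA, was present on either strand in all 8 genes with a promoter, against 24.6% of all promoters. On the plus strand it begins 64 bases before the start in FOS, 60 in FOSB, 54 in MAFF (first start) and 66 in FOSL2, the gene that was level. It begins 137 bases before the start in JUNB, 123 in JUN and 200 in JUND, and 4 after it in MAFG. The GC content of these promoters ran from 62% (JUN) to 77% (JUND), and the 24.6% was not matched for GC. TGACG was also searched after the values were seen, and every TGACGTCA holds it. The whole element TGACGTCA was found in MAFF and JUND only, and in 1.85% of all promoters. TGACTCA, the AP-1 element, was found in FOSL2 only, 5 bases after the start, and in 4.95% of all promoters. TGACNNNGC, the core of the element bound by NFE2L2 with small MAF, was found in MAFF and JUND and in 13.3% of all promoters. The CArG box of SRF was in none of the 8 within 250 bases before to 50 after the start, against 1.29% of all promoters. Sequence farther upstream was not searched, so a CArG box there would be missed. All motifs were searched on both strands, and the second start of MAFF held none of them. A gene was counted if any of its starts held the motif, while the shares of all promoters count each promoter. MAFF (chr22:38201844-38202043, plus strand, first start) is shown with TGACGTCA in capitals, as the small MAF gene with the largest fold. FOSL2 (chr2:28392708-28392907, plus strand) is shown with TGACG and TGACTCA in capitals, as the gene that was level.
MAFF: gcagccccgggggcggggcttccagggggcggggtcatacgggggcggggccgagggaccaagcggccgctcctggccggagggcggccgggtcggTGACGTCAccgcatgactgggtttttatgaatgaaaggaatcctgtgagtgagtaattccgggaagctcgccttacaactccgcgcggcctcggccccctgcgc
FOSL2: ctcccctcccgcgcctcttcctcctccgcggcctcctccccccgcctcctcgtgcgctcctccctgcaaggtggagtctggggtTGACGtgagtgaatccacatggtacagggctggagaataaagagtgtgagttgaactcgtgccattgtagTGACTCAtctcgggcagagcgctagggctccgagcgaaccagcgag

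AU-rich elements of the 3' UTR, which shorten the life of many early response mRNAs, were counted on the coding strand of 1 GENCODE 29 transcript per gene (that with the longest coding sequence). The core TATTTAT, which holds the pentamer ATTTA, was present in 9 of the 10 genes, JUNB being without it, against 31.6% of 11685 expressed protein-coding genes. Longer UTRs give more room for a match, and the 3' UTR was 4864 bases in FOSL2 and 4335 in MAFG against a median of 989. ATTTA was found 5 times in the 806 bases of FOS (6.20 per kilobase), 4 times in MAFF, 3 times each in FOSB and JUN, 2 times in JUNB and 1 time in FOSL1. FOSL2, MAFG and MAFK, whose folds were smaller than that of FOS, held 9, 6 and 5, as many as FOS or more, but JUND held 1. Per kilobase the order differed. FOS, JUNB, MAFF (2.45) and JUN (2.33) stood above MAFK (1.87), FOSL2 (1.85) and MAFG (1.38). FOSL1 and FOSB (1.39) stood below MAFK and FOSL2, as did JUND (1.47). Whether this density goes with the fold was not tested. The search of the 3' UTR was also added after the values were seen.

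The library kit does not mark strand, so genes that overlap or adjoin a member were read beside it. Within 5 kb lay 20 genes, of which 12 reached a mean of 1 TPM. Among those, 2 stood lower by 1.5-fold or more and 3 higher, against 16.6% and 21.7% of all genes. CCDC85B lies 414 bases beyond the 3' end of FOSL1, on the opposite strand and facing it. It was 216 TPM in the control library against 91.8 TPM with the XPR1 siRNA, which was 2.36-fold lower (2.14 to 2.60), the same fold as FOSL1. Whether reads run from one gene into the other was not tested. The other lower neighbour, the antisense gene ENSG00000264769 within MAFG, was 8.42 and 3.50 TPM from 20 and 8 reads. ERCC1, whose span covers FOSB on the opposite strand, was 80.5 and 69.2 TPM, 1.16-fold lower (1.09 to 1.25), against 8.14-fold for FOSB. HOOK2, which spans JUNB, was higher at 3.03 and 5.67 TPM, as was PRDX2 nearby (45.3 and 93.6 TPM). Within FOSL2 the sense intronic gene ENSG00000270640 was 1.60 and 7.49 TPM from 2 and 9 reads. PLA2G6, which overlaps MAFF, was 3.26 and 3.43 TPM, and SIRT7, which overlaps MAFG, 5.14 and 6.10 TPM. FIBP near FOSL1 (32.7 and 44.8 TPM), TMEM184B near MAFF (29.3 and 42.55 TPM), and MILIP (5.13 and 4.42 TPM) and PYCR1 (78.6 and 58.9 TPM) near MAFG were within 1.5-fold.

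Other leucine zipper partners of FOS and JUN were mostly lower. Of 9 genes, 7 were expressed, 5 stood lower by 1.5-fold or more and none higher, against 16.6% and 21.7% of all genes, and the median was -0.74. The stress-induced repressor ATF3 was 32.03 and 6.83 TPM, 4.69-fold lower (3.82 to 5.80), and DDIT3 (CHOP) 67.4 and 5.84 TPM. JDP2, which represses AP-1 sites as a partner of JUN, was 17.1 and 9.76 TPM, and BATF3 was 8.21 and 4.51 TPM. The fifth, CREB5 (44.0 and 28.5 TPM), was picked out with its value in view. BATF was listed at 0 in both libraries.

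The partners of the small MAF proteins held genes on both sides. Of 6 genes, 5 were expressed, 2 stood lower by 1.5-fold or more and 1 higher, against 16.6% and 21.7% of all genes, and the median was -0.43. NFE2L1 (NRF1), which drives proteasome genes, was 474 and 193 TPM, 2.45-fold lower (2.37 to 2.54). BACH1, the heme-sensing repressor that pairs with small MAF, was 35.5 and 19.5 TPM. NFE2L2, the antioxidant regulator, was 109 and 80.0 TPM, within 1.5-fold. NFE2, a blood cell factor, was 1.00 and 3.34 TPM and rests on 10 and 33 reads. Of the large MAF factors, which do have an activation domain, MAFA was expressed, at 1.89 and 2.95 TPM (ratio 1.56, interval 0.857 to 2.90), and MAF was listed at 0.

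Genes upstream of AP-1 showed no common direction, and the small counts below stand beside 16.6% lower and 21.7% higher among all genes. Of 6 genes for SRF, its cofactors and the ternary complex factors, 2 stood lower by 1.5-fold or more and 1 higher, and the median was 0.16. SRF was 66.6 and 42.8 TPM, 1.56-fold lower (1.42 to 1.71). The ETS factor ELK3 was 330 and 171 TPM, 1.94-fold lower, while its relative ELK4 was 53.7 and 79.2 TPM and the SRF cofactor MRTFB 10.9 and 18.3 TPM. Of 9 expressed MAP kinases, 2 were lower and 1 was higher, with a median of 0.15. MAPK8, the JUN kinase JNK1, was 31.5 and 17.6 TPM, 1.79-fold lower (1.63 to 1.96), and the p38 kinase MAPK13 64.0 and 32.6 TPM. MAPK3 (ERK1) was higher, at 39.4 and 83.4 TPM, 2.12-fold (1.92 to 2.33), and the p38 kinase MAPK14 was 49.4 and 62.8 TPM. Of 7 MAP kinase kinases, 1 was lower and 1 higher, with a median of -0.21. MAP2K1 (MEK1), which activates ERK, was 84.7 and 45.7 TPM, 1.85-fold lower (1.69 to 2.03). MAP2K6, which activates p38, was 1.14 and 5.17 TPM, while MAP2K3 (61.1 and 41.3 TPM) and MAP2K5 (16.25 and 13.9 TPM) were within 1.5-fold. Of 5 genes for ubiquitin ligases and adaptors that turn over JUN, 4 were expressed and all 4 were within 1.5-fold. FBXW7 was 10.01 and 8.83 TPM, COP1 49.1 and 50.5 TPM, TRIB1 48.8 and 40.7 TPM, and ITCH 74.0 and 62.4 TPM. These are transcript levels, and phosphorylation and protein were not measured.

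On a list of genes known as AP-1 targets, most were lower. The list was chosen with earlier results of these data known, so its counts describe these genes and test nothing. Of 32 genes, 30 were expressed, 24 stood lower by 1.5-fold or more and 3 higher, and the median was -1.85. Among all genes 16.6% were lower and 21.7% higher, with a median of 0.05. The lowest on the log2(TPM + 1) scale were PTGS2 (375 and 2.57 TPM), MMP1 (454 and 3.87 TPM), IL1A (716 and 9.86 TPM) and IL1B (74.2 and 1.35 TPM). Many of these, IL1A, IL1B and PTGS2 among them, are NF-kB targets as well. The TPM folds of these 4 genes, from 54.8 to 146, were larger than the 8.14 of FOSB. MMP3 (13.5 TPM in control) and MMP10 (3.77 TPM in control), picked with their values in view, were listed at 0 after XPR1 siRNA. The 3 higher genes, picked with their values in view, were the secreted phosphoprotein SPP1 (49.5 and 299 TPM), the chemokine CCL2 (191 and 386 TPM) and the membrane linker EZR (269 and 430 TPM). CCND1, TGFB1 and FN1, also picked in that way, were within 1.5-fold, and IVL and MMP13 were listed at 0 in both libraries.

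Genes that respond to NFE2L2 with small MAF were not lower as a group. Of 18 genes, 17 were expressed, 4 stood lower by 1.5-fold or more and 6 higher, against 16.6% and 21.7% of all genes, and the median was 0.29. SLC7A11, the cystine importer and also a target of ATF4, was 72.1 and 11.1 TPM, 6.49-fold lower (5.86 to 7.19). PIR, an iron-binding nuclear protein, was 7.55 and 20.8 TPM, 2.75-fold higher (2.12 to 3.61). AKR1B10, an aldo-keto reductase with close paralogs, was 0.936 and 3.61 TPM from 7 and 26 reads.

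**Figure D4:**
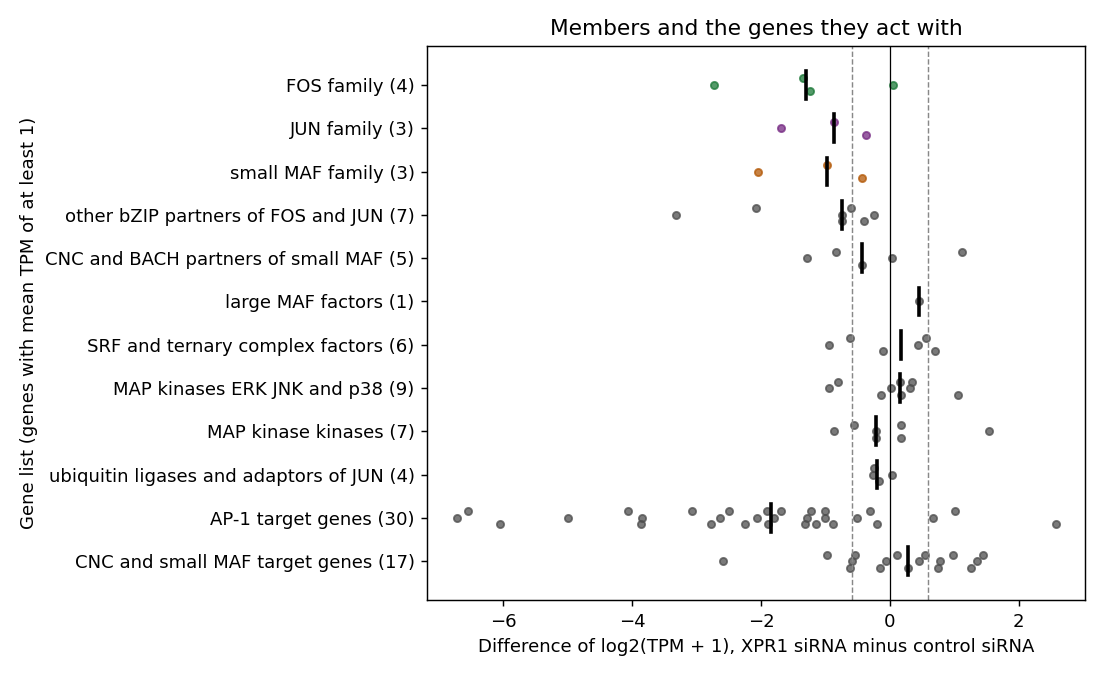
Difference of log2(TPM + 1), XPR1 siRNA minus control siRNA, for each expressed gene (mean TPM of 1 or more) in each list (number of genes in brackets), with the median as a black bar and dashed lines at 1.5-fold in either direction. AP-1 target genes have a median of -1.85, and the targets of NFE2L2 with small MAF a median of 0.29.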

How the data were processed

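The authors deposited TPM values for 58884 Ensembl genes in 2 libraries. Per the submitters' processing notes, the genome build was GRCh38 and the tools named, without role or order, are Trimmomatic 0.38, featureCounts 2.0.0, FastQC and MultiQC. For the aligner and annotation release the entry is "not given in the sources used here". Each library sums to 1000000, so values are relative within a library. Per the labels' protocols, libraries were made with TruSeq RNA Library Prep Kit v2, which does not mark strand.

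Symbols came from a gene name table (58472 identifiers matched) and GENCODE 29, which also gave coordinates and exon lengths (58611 identifiers). Reads were recovered as TPM times exon length over the value of 1 read. This gave numbers within 0.01 of whole for 92.4% (control) and 92.5% (XPR1 siRNA) of the genes at 10 reads or fewer. Chance gives 2% for a value of 1 read set beforehand. Here that value was itself chosen to give the most whole numbers among low genes. Reads were whole in both libraries for 4 of the 10 members (FOSB, FOSL1, JUN and JUND), and the other intervals are approximate. No molecular identifiers are recorded, so reads are not independent molecules and intervals cover counting error only.

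Ratios of TPM and differences of log2(TPM + 1) were computed (Python 3.11.15, SciPy 1.17.1). Lists of partners, upstream genes and targets were described by counts and medians. The members, the lists and the rule for named genes (all members, the 4 largest differences of each list at a mean of at least 1 TPM, and expressed neighbours) were chosen with earlier results of these data known. Some genes that the rule takes are left out of the text. The method was tested on simulated data. Other pseudocounts, floors and scalings were tried.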

Additional observations from a re-analysis of the deposited data

How the results depend on the processing

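No paired analysis was possible because there is a single library for each siRNA, which also leaves none to omit. The count of members at least 1.5-fold lower was 7 under every pseudocount, scaling and floor tried, and the count at least 2-fold lower ranged from 4 (pseudocount 5) to 6 (median-of-ratios and upper-quartile scaling). FOSL2 changed sign under both of those scalings, and the other 9 members stayed below control under every pseudocount and scaling. Upper-quartile scaling moved the log2 ratio of the FOS family sum from -0.86 to -0.95 and of the JUN family sum from -0.91 to -1.001. With a pseudocount of 5, XPR1 moved from -2.67 to -2.10, the other leucine zipper partners lower went from 5 to 2, the NFE2L2-type partners higher from 1 to 0, and the SRF group from 2 lower and 1 higher to 1 and 0. That pseudocount also moved the share of all genes lower from 16.6% to 9.10% (1.5-fold) and from 8.57% to 3.25% (2-fold). Both scalings gave 2 MAP kinase kinases lower in place of 1. A floor of 5 TPM left 0 MAP kinase kinases and 0 NFE2L2-type partners higher. Large MAF factors counted 1 higher with a pseudocount of 0.1, and 1 lower without mitochondrial genes or with no floor, in place of 0. A single read is a coarse step for the low genes, and FOS rests on the fewest reads of the members.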
